A study of Mus musculus with 6 samples.

Results

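Cxcl13 and 8 further genes of lymphocyte homing were followed in the whole colon of wild-type and TNFR1-deficient mice. The set holds 5 chemokines (Cxcl13, Ccl19, Ccl21a, Cxcl12 and Ccl20) and 4 receptors (Cxcr4, Cxcr5, Ccr6 and Ccr7), 9 of the 30330 gene symbols with values in the table. The members were chosen by their measured TPM in these same libraries, knockout against wild type. Their differences between genotypes are therefore given as a description. Where a count of members past a threshold is given, it stands beside the share of all genes and nothing is read from it. The value for each gene is the sum of its transcripts in TPM, a length-normalised abundance that can be compared between genes.

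There were 3 wild-type libraries (genotype WT) and 3 from mice labelled R1ko (genotype Tnfrsf1a-/-), one per male mouse of 12 weeks, all of strain C57Bl/6J. Tnfrsf1a encodes TNFR1, the main signalling receptor for tumour necrosis factor, and the labels give its loss in every cell rather than in one cell type. They do not say which part of the gene is removed, nor whether the genotypes were littermates, so a difference in genetic background cannot be told apart from the knockout. RNA came from the colon wall as a whole, without sorting of cells. A lower level can thus mean fewer cells of a type or less RNA in each, and these cannot be told apart.

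Homing chemokines place lymphocytes in organised lymphoid tissue. CXCL13, made by follicular dendritic cells and related stromal cells, draws B cells that carry its receptor CXCR5 into follicles, while CCL19 and CCL21 draw T cells and dendritic cells that carry CCR7. CXCL12 acts through CXCR4 on most leukocytes, and CCL20, made by the epithelium over follicles, acts through CCR6. The colon holds such tissue as lymphoid patches and small isolated follicles. Lymphotoxin, acting through the lymphotoxin beta receptor and the alternative NF-κB pathway, and TNF, acting through TNFR1, are both known to sustain the stroma that makes CXCL13.

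The promoters of Cxcl13 and Ccl20 are shown because these chemokines differed most in their pattern across the libraries. Promoter sequences from RefSeq (GRCm38.p6, the same coordinates as mm10) were matched for 7 of the 9 genes, all but Cxcr5 and Ccr7. The 250 bases before each start were searched on both strands for the consensus NF-κB frame, for a variant frame associated with RelB and for the TATA box (TATAAA). Capitals mark the matches in the sequences, which read 5′ to 3′ along the gene. That of Cxcl13 is at chr5:95956689-95956938 (plus strand) and that of Ccl20 at chr1:83116516-83116765 (plus strand).
Cxcl13: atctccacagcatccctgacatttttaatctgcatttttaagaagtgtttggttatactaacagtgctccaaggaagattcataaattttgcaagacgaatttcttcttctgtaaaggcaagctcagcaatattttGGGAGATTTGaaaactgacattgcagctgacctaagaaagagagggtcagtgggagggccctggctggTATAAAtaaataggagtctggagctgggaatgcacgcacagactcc
Ccl20: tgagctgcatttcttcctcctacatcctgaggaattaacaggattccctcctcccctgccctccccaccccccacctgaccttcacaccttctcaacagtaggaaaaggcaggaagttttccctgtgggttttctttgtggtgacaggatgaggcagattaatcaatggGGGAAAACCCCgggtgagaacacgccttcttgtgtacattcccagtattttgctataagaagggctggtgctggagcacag

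In the Cxcl13 promoter the variant frame lay 114 to 105 bases before the start, as GGGAGATTTG, and a TATA box lay at 46 to 41 bases. Of the 7 genes with a promoter sequence, Cxcl13 was the only one with the variant frame, which 0.791% of 32851 promoters hold in the same window. The origin of this frame was not traced, so it may have been drawn from this same Cxcl13 site. Nothing is read from its match in Cxcl13 or from its absence in the others. Ccl20 had 2 overlapping matches to the common frame on the opposite strand, between 81 and 71 bases before its start, and Ccl19 and the downstream of the 2 Ccr6 promoters also held one. That frame is found in 4.11% of promoters and the TATA box in 12.4%. These are matches of letters only and do not show that a factor binds there.

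Reads of 2 members cannot be assigned with certainty, because mouse chromosome 4 carries several near copies of them. Ccl21a (ENSMUSG00000094686; 42772860 to 42773993, minus strand) and Ccl19 (ENSMUSG00000071005; 42754525 to 42756577, minus strand) are neighbours, 16283 bases apart in mm10. In the GENCODE M21 transcripts, 80.6% of the 31-base words of the Ccl21a transcript occur in Ccl21b, Gm10591, Gm13304 or Gm21541. For the main Ccl19 transcript 73.6% occur in the pseudogenes Ccl19-ps1, Ccl19-ps3 and Gm12407 or in Gm2564. The other 7 members shared at most 3.06% of the words of any transcript. The coding sequence of Ccl21b matches that of Ccl21a at 400 of 402 bases. The stretches around both differences, T84A and C194T (the Ccl21a base, its position from the first base of the start codon, the Ccl21b base, in capitals), show how little separates the copies.
Ccl21a, bases 64 to 104: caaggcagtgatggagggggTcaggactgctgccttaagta
Ccl21b, bases 64 to 104: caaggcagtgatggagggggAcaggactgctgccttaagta
Ccl21a, bases 174 to 214: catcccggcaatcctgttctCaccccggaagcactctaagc
Ccl21b, bases 174 to 214: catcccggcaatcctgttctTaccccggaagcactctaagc

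The libraries carried their labels in the targeted gene. The full-length Tnfrsf1a transcript stood at 67.6, 39.9 and 59.1 TPM in the WT libraries (replicates 1, 2 and 3, the order used throughout) and at 23.5, 20.4 and 25.6 TPM in the R1ko libraries. Reads of the gene thus remained in the knockouts, but spread differently over its transcripts. The full-length transcript held 93.4% of the gene in WT and 52.4% in R1ko libraries. ENSMUST00000125880, a shorter transcript of the nonsense-mediated decay class, had 1.20, 1.20 and 0.890 TPM in WT and 18.0, 12.4 and 14.1 TPM in R1ko libraries. ENSMUST00000144524 was also higher without overlap, at 0.170 ± 0.0670 TPM in WT and 1.81 ± 0.362 TPM in R1ko. In wild-type replicate 2, transcripts without a gene symbol held 27.4% of all TPM, against 1.86 to 7.23% in the other libraries, which lowers every other value there. Its median-of-ratios scaling factor was 0.784, against 0.916 to 1.13 elsewhere. Ratios within a library do not depend on this. Markers of colon epithelium such as Car1 (927 to 1379 TPM) and Krt20 (310 to 461 TPM) were high in each of the 6 libraries. Krt20 was higher in knockout without overlap, at 400, 310 and 398 TPM in WT and 461, 443 and 439 TPM in R1ko colons.

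In the wild-type colon the T cell zone chemokine Ccl21a was the most abundant member and Ccr7, the receptor it acts on, the least. Ccl21a had 62.4 ± 10.8 TPM (SD, n = 3, as for all means here) and Cxcl12 34.8 ± 5.08 TPM. Cxcl13 followed with 9.57 ± 2.46 TPM and Ccl20 with 7.20 ± 0.794 TPM. All 4 receptors, and Ccl19, were lower than these chemokines. Cxcr4 had 3.62 ± 0.639 TPM and Ccl19 2.01 ± 0.307 TPM, then came Cxcr5 at 1.39 ± 0.243, Ccr6 at 1.15 ± 0.220 and Ccr7 at 0.744 ± 0.0203 TPM. Neighbours in this order overlapped in 2 places, between Cxcl13 and Ccl20 and between Cxcr5 and Ccr6.

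**Figure D1:**
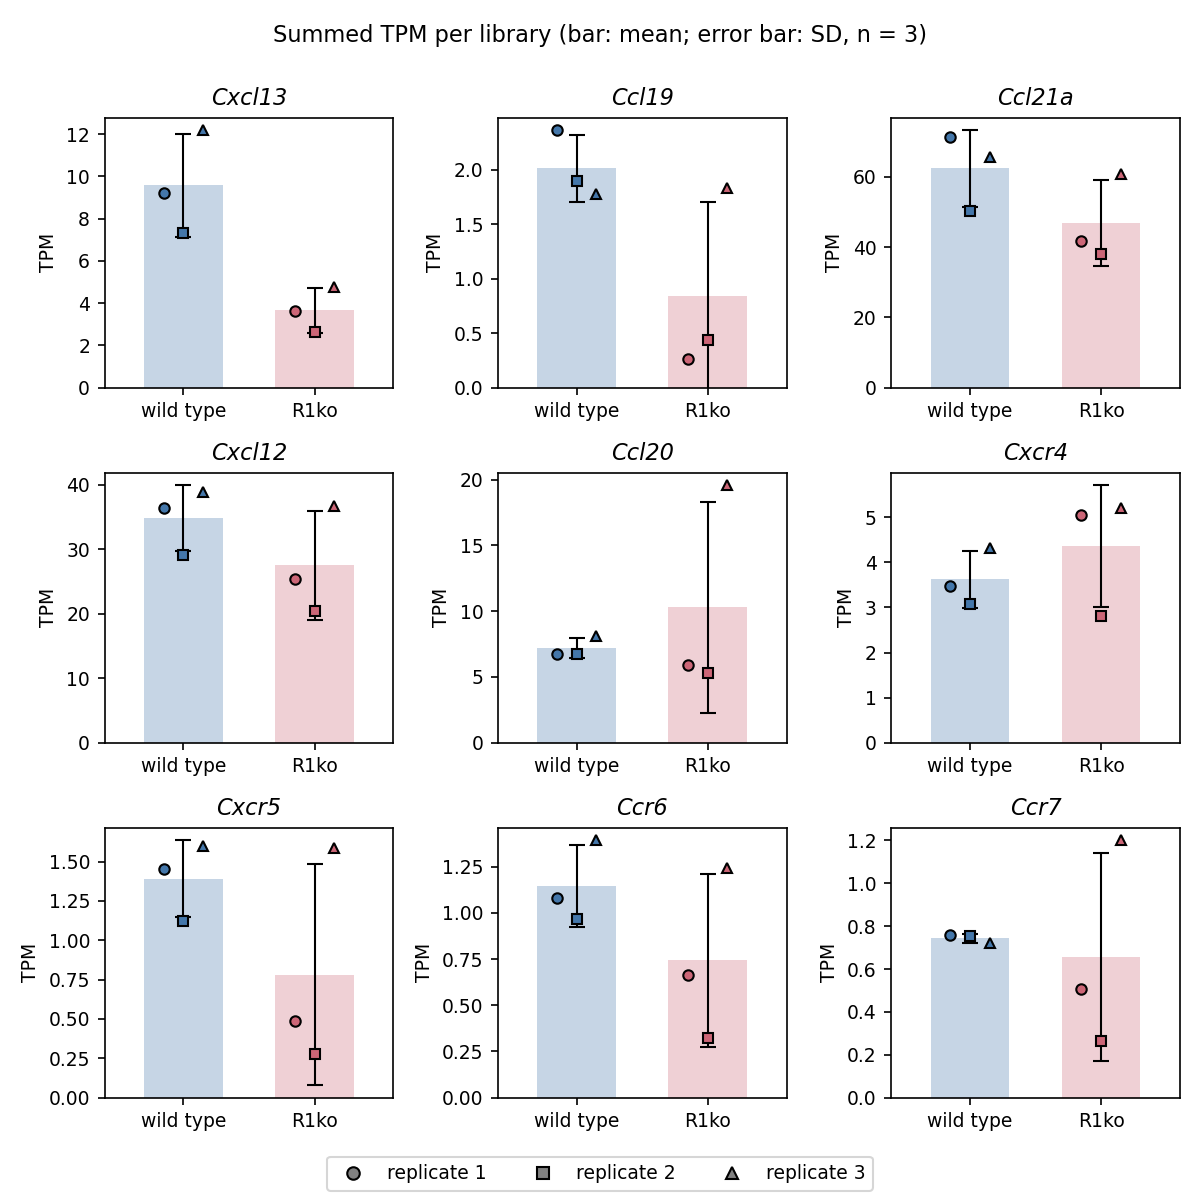
Summed TPM of each of the 9 genes (y axis) in wild-type and R1ko libraries; points are single libraries, bars the means and error bars the SD (n = 3). Cxcl13 is the only gene whose groups do not overlap, and R1ko replicate 3 (triangle) is the highest knockout library in all 9 panels.

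Cxcl13 (ENSMUSG00000023078; mm10 chromosome 5, 95956951 to 95961068) has a single transcript in the table. Its level was 9.23, 7.31 and 12.2 TPM in the WT colons and 3.61, 2.63 and 4.76 TPM in the R1ko colons. Every knockout library lay below every wild-type library, and the highest knockout value was 4.76 TPM against a lowest wild-type value of 7.31 TPM. The knockout mean of 3.67 ± 1.07 TPM was 38.3% of the wild-type mean, a difference of −1.28 ± 0.26 (SE) on the log2(TPM + 0.5) scale, which understates changes of low values. Of the 14248 genes tested with limma, 0.646% had a lower log2 difference. Since this contrast chose the members, nothing is read from that rank. After median-of-ratios scaling the values were 8.18, 9.32 and 11.1 against 3.40, 2.88 and 4.48, again without overlap, as for 9.18% of the genes tested (lower in knockout).

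The place of Cxcl13 among the other members also differed between genotypes. It was above Ccl20 and above Cxcr4 in 3 of 3 wild-type libraries and below each of them in 3 of 3 knockout libraries. The mean of Cxcl13 was the third highest of the 9 in wild type and the fifth in knockout, after Ccl21a, Cxcl12, Ccl20 and Cxcr4.

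Cxcl13 was also lower relative to Cxcl12, Ccl21a and Pdgfra of the same library, but not relative to Cr2 or to its receptor gene Cxcr5. These ratios, and Pdgfra and Cr2 as genes to compare with, were chosen after their values were seen. They reuse the values by which Cxcl13 was chosen, and the share of all genes with such ratios apart was not computed. The ratio of Cxcl13 to Cxcl12 was 0.254, 0.251 and 0.313 in wild type and 0.142, 0.129 and 0.130 in knockout. The knockout ratios lay close together and well under the lowest wild-type ratio, with a mean at 49.1% of wild type. The ratio to Ccl21a was 0.154 ± 0.0290 in wild type and 0.0780 ± 0.00863 in knockout, and that to the fibroblast receptor gene Pdgfra 0.688 ± 0.0628 and 0.306 ± 0.0351, both without overlap. The ratio to Cr2, a gene of follicular dendritic cells and B cells, was 4.19, 4.36 and 4.38 in wild type and 7.31, 7.71 and 2.15 in knockout. It was above wild type in knockout replicates 1 and 2 and below it in replicate 3. The ratio to Cxcr5 was 6.35, 6.51 and 7.63 in wild type and 7.43, 9.58 and 3.01 in knockout. The groups overlapped, with a knockout mean at 97.8% of wild type. Cxcl12 and Ccl21a kept a similar proportion to each other, with a ratio of 0.561 ± 0.0445 in wild type and 0.582 ± 0.0405 in knockout and overlapping groups.

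**Figure D2:**
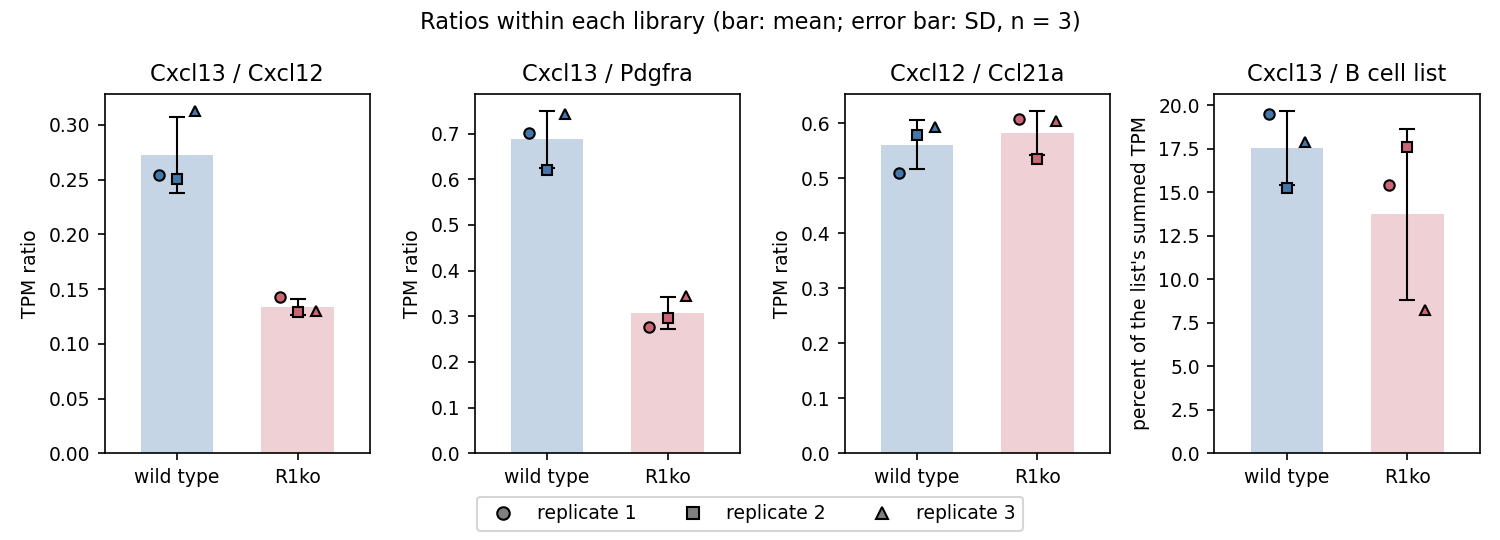
Ratios of TPM within each library (first 3 panels) and Cxcl13 as a percentage of the summed TPM of 11 B cell genes (last panel); points are libraries, bars means and error bars SD (n = 3). Cxcl13 relative to Cxcl12 or Pdgfra is lower in each knockout library, Cxcl12 relative to Ccl21a overlaps, and relative to B cell genes only R1ko replicate 3 stands below wild type, at 8.21%.

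Among the chemokines of the T cell zone, Ccl19 and Ccl21a were low in knockout replicates 1 and 2 and near wild type in replicate 3. Ccl19 had 2.36, 1.90 and 1.78 TPM in WT and 0.260, 0.436 and 1.83 TPM in R1ko colons. The groups overlapped through replicate 3 alone. The log2 difference of Ccl19 was −1.08 ± 0.35 (SE), and −1.57 without that library. With its copies summed, chosen as an alternative after seeing the data, Ccl19 measured 3.20 ± 0.437 and 1.58 ± 1.31 TPM.

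Ccl21a had 71.2, 50.3 and 65.5 TPM in WT and 41.7, 38.0 and 60.9 TPM in R1ko colons. Knockout replicates 1 and 2 were under the wild-type range and replicate 3 within it. The log2 difference was −0.42 ± 0.22 (SE). After median-of-ratios scaling Ccl21a stood at 63.2, 64.1 and 59.8 in WT and at 39.3, 41.5 and 57.2 in R1ko, so the groups no longer overlapped, replicate 3 lying just under the lowest wild-type value. Of the near copies, Gm21541 was listed at 18.8 ± 8.43 TPM in WT and 15.9 ± 3.89 TPM in R1ko colons, while Ccl21b, Gm10591 and Gm13304 were listed at 0 in each library. Transcripts named Ccl21c in the table had 6.47 TPM in wild-type replicate 2 and 0.227 TPM or less elsewhere. Summed over these 6 genes the level was 92.2, 66.3 and 91.5 TPM in WT and 55.4, 51.5 and 81.5 TPM in R1ko colons, with the same order of libraries in the knockout group and the same overlap. Lyve1, a marker of lymphatic endothelium, which makes CCL21, had 15.6 ± 4.78 and 13.6 ± 3.31 TPM.

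Cxcl12 (ENSMUSG00000061353; chromosome 6, 117168535 to 117181367) lies 8.17 Mb from Tnfrsf1a on the same chromosome. For this gene, sequence flanking the targeted allele and the loss of TNFR1 cannot be told apart. It had 36.4, 29.1 and 38.9 TPM in WT and 25.3, 20.3 and 36.8 TPM in R1ko colons, a log2 difference of −0.37 ± 0.23 (SE) with overlapping groups. Its transcripts kept their proportions. The transcript ENSMUST00000112866, which ends earliest in the gene, held 74.7 ± 2.54% of Cxcl12 in wild type and 75.6 ± 1.04% in knockout.

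Ccl20 (ENSMUSG00000026166; chromosome 1, 83116766 to 83119167), the chemokine of follicle epithelium, went the other way on average through 1 library. It had 6.77, 6.71 and 8.12 TPM in WT and 5.95, 5.33 and 19.6 TPM in R1ko colons. Knockout replicates 1 and 2 lay under the wild-type range and replicate 3 well above it. The log2 difference of 0.25 ± 0.31 (SE) became −0.32 without knockout replicate 3. In each library 88.8 to 95.7% of Ccl20 came from the transcript ENSMUST00000113437.

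Of the receptors, those of B cells and mature lymphocytes followed knockout replicate 3. Cxcr5 (ENSMUSG00000047880; chromosome 9, 44511787 to 44561877), the receptor of CXCL13, had 1.45, 1.12 and 1.60 TPM in WT and 0.485, 0.275 and 1.58 TPM in R1ko colons. Its log2 difference was −0.69 ± 0.35 (SE), and −1.11 without replicate 3. Ccr6 (ENSMUSG00000040899; chromosome 17, 8236043 to 8257141) had 1.08, 0.967 and 1.39 TPM against 0.665, 0.321 and 1.24 TPM. Ccr7 (ENSMUSG00000037944; chromosome 11, 99144196 to 99155077) had 0.758, 0.752 and 0.720 TPM in WT and 0.505, 0.264 and 1.20 TPM in R1ko colons. In all 3 receptors the first 2 knockout replicates were under the wild-type range. Replicate 3 lay within that range for Cxcr5 and Ccr6 and above it for Ccr7.

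Ccr6 and Ccr7 had means under 1 TPM over the 6 libraries and were not tested. Cxcr4 (ENSMUSG00000045382; chromosome 1, 128588199 to 128592293), the receptor of CXCL12, had 3.48, 3.07 and 4.32 TPM in WT and 5.06, 2.80 and 5.21 TPM in R1ko colons. The groups overlapped, with a log2 difference of 0.21 ± 0.27 (SE). Of its transcripts, ENSMUST00000052172 had 1.75 ± 0.591 and 1.66 ± 0.158 TPM, and the shorter ENSMUST00000142893 had 1.59, 1.97 and 2.07 TPM in WT, compared with 3.51, 1.22 and 3.37 TPM in R1ko colons. These transcripts overlap along the gene, so the split between them is uncertain.

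**Figure D3:**
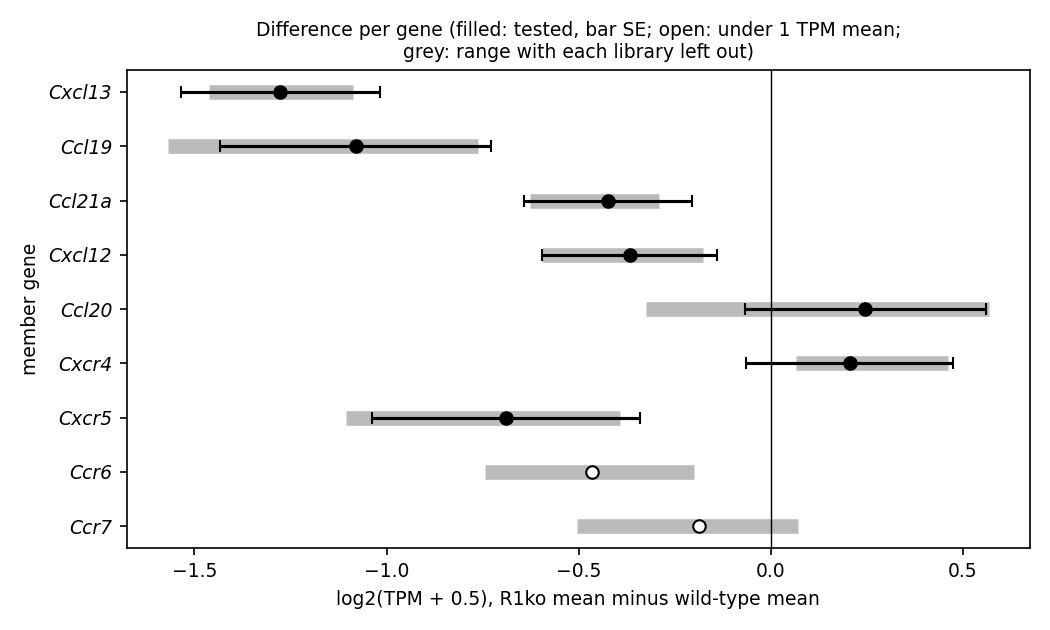
Difference between the R1ko and wild-type means on the log2(TPM + 0.5) scale (x axis) for each gene; error bars are the limma SE, open points are genes under the mean of 1 TPM, and grey bands span the values with each library left out in turn. Ccl20 and Ccr7 cross 0 when a single knockout library is left out, and the other 7 genes keep their sign.

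Counted together, 7 of the 9 genes had a negative log2 difference, with a median of −0.42. Among the 7 members tested 5 were negative, with the same median, while 44.3% of the 14248 genes tested were negative and their median was 0.02. Of the 7 members tested, 1 (Cxcl13) passed an adjusted p of 0.05 in limma (Benjamini-Hochberg over all genes), as did 0.267% of all genes, 0.175% lower and 0.0912% higher in knockout. Groups did not overlap for 1 member, as for 4.98% of the genes tested (1.82% lower, 3.17% higher). After median-of-ratios scaling this held for 2 members, Cxcl13 and Ccl21a, both lower, as for 9.18% of the genes tested. Since this contrast chose the members, nothing is read from these counts. Cxcl13 was not past the threshold after median-of-ratios scaling, after rescaling over transcripts with a gene, with no filter on low values, without wild-type replicate 2 or without wild-type replicate 3, while its log2 difference stayed between −1.46 and −0.97 in all alternatives tried.

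The B cells that CXCL13 attracts were described by 11 further genes. None of the 10 tested passed in limma (adjusted p over all genes), by itself or after median-of-ratios scaling, and at an unadjusted p of 0.05 8 were lower and 0 higher, where 1.97% of all genes were lower. All 10 had negative log2 differences, with a median of −0.87 against 0.02 for all genes tested. Ighd, the heavy chain of IgD, had 6.38, 6.89 and 10.7 TPM in WT and 2.79, 1.61 and 6.20 TPM in R1ko colons, and Ighm 15.3 ± 3.21 and 10.1 ± 6.30 TPM. The signalling chains of the B cell receptor behaved alike: Cd79a had 4.98, 6.05 and 7.06 TPM against 2.64, 1.82 and 6.90 TPM, and Cd79b 6.75 ± 1.74 and 4.13 ± 3.65 TPM. Knockout replicates 1 and 2 were low in these genes and replicate 3 was closer to wild type. Groups did not overlap for 2 of the 10, Ighd and Pax5, both lower, as for 1.82% of the genes tested. After median-of-ratios scaling the groups of Ighd overlapped, knockout replicate 3 lying just above wild-type replicate 1. Those of Pax5 stayed apart, as for 9.18% of the genes tested (lower in knockout). Pax5, chosen after its values were seen, had 1.67, 1.32 and 1.51 TPM in WT and 0.281, 0.270 and 1.04 TPM in R1ko colons.

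Summed over the 11 genes, the B cell level was 47.4, 47.9 and 68.0 TPM in WT and 23.4, 15.0 and 58.0 TPM in R1ko colons. Cxcr5 went with this level, at 2.34 to 3.07% of it in wild type and 1.84 to 2.73% in knockout. Cxcl13 did not do so in every library. It stood at 19.5, 15.2 and 17.9% of the B cell level in wild type and at 15.4 and 17.6% in knockout replicates 1 and 2, but at 8.21% in replicate 3. In knockout replicate 3 the summed B cell level was inside the wild-type range and Cxcl13 was below its own. The B cell genes of that library did not all lie inside. Pax5 (1.04 TPM) and Ighd (6.20 TPM) were below their lowest wild-type values of 1.32 and 6.38 TPM. Ms4a1 (3.84 TPM) and Cd37 (4.65 TPM), chosen after their values were seen, were above their highest of 3.63 and 3.84 TPM. Whether the number of B cells had a part in the level of Cxcl13 was not tested.

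**Figure D4:**
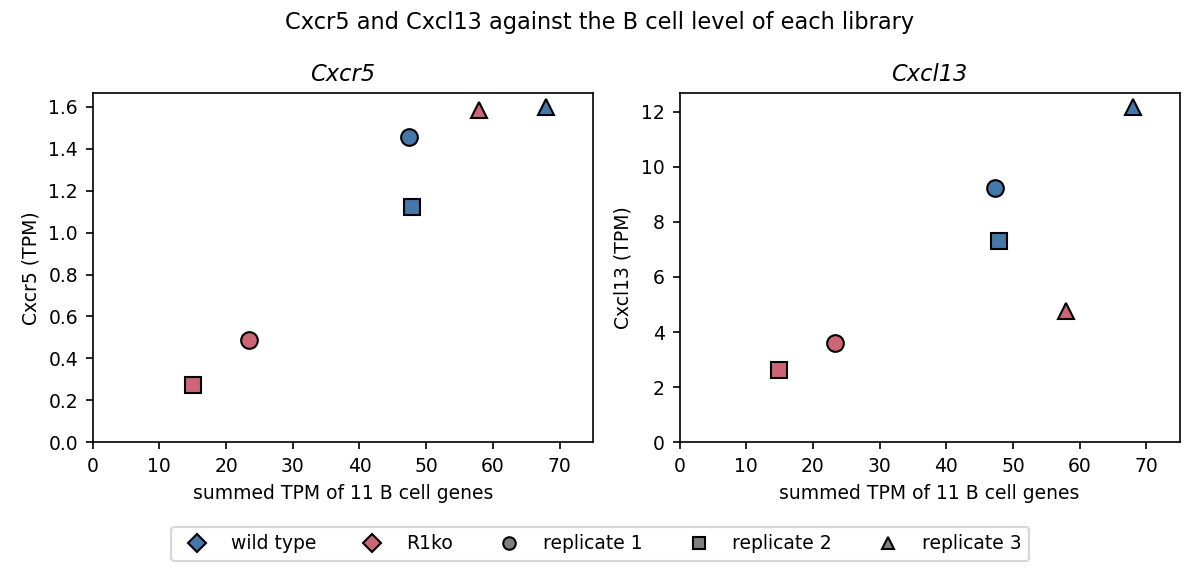
TPM of Cxcr5 (left) and Cxcl13 (right) against the summed TPM of 11 B cell genes in each of the 6 libraries; colour gives the genotype and shape the replicate. R1ko replicate 3 (58.0 TPM of B cell genes) lies among the wild-type libraries for Cxcr5, at 1.58 TPM, and below them for Cxcl13, at 4.76 TPM.

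The genes most like Cxcr5 in their pattern over the 6 libraries were not those most like Cxcl13. For Cxcr5 they included H2-DMb2, a part of the class II peptide loader of B cells, Spns1, Mfge8, Ms4a1 (the B cell antigen CD20) and Med18, with Pearson r of 0.997 to 0.994. For Cxcl13 they were Sox17, Taf1, Zfp101, Cyp27a1, Scarb1 and Kctd18, with r of 0.994 to 0.985. None of these is a B cell gene of the list, and of the genes most like Cxcr5 only Ms4a1 is. These are the highest correlations of scaled log2 values over 6 libraries of both genotypes, searched among the 14248 genes tested without predicted gene models, pseudogenes and immunoglobulin segments, and they are given as a description. Cxcl13 and Cxcr5 correlated with each other at r = 0.82, so unlike lists do not show that their patterns are unlike.

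No gene of the pathways and cell types around the homing chemokines passed the threshold. Over 12 lists with 115 genes (other gut chemokines and receptors, atypical receptors, the lymphotoxin pathway, lymphoid stroma, lymphoid tissue inducer cells, B cells, T cells, myeloid cells, follicle epithelium, endothelium, fibroblasts and colon epithelium), 0 of 85 tested genes passed in limma, where 0.267% of all genes did. After median-of-ratios scaling 0 passed as well. At an unadjusted p of 0.05, 11 were lower and 3 higher, where 1.97% and 1.72% of all genes were. Without knockout replicate 3, 9 of them passed, all lower, where 0.983% of all genes did so, among them Cd22, Cd79a, Cd79b, Fcmr, Ighd, Ighm, Pax5 and Cr2, the last a complement receptor of B cells and follicular dendritic cells.

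Of 12 tested genes of the lymphotoxin and alternative NF-κB pathway, 0 passed and the median log2 difference was 0.04. Ltbr, the lymphotoxin beta receptor, had 56.7 ± 12.0 TPM in WT and 63.1 ± 2.63 TPM in R1ko colons. Relb, the transcription factor subunit at the end of this pathway, had 48.7, 42.6 and 54.8 TPM against 58.6, 56.9 and 65.9 TPM, the knockout libraries being above the wild-type ones. Tnfrsf14, a receptor of the same family, chosen after its values were seen, went the other way without overlap, at 18.1 ± 1.72 TPM in WT and 14.7 ± 1.32 TPM in R1ko. Its unadjusted p in limma was 0.185, and its groups overlapped after median-of-ratios scaling. Of the 12 genes, groups did not overlap for 1 lower and 1 higher in knockout, as for 1.82% and 3.17% of the genes tested. Chuk, the kinase IKKα, had 53.8 ± 10.1 and 51.0 ± 10.7 TPM and Birc3 121.3 ± 19.0 and 126.1 ± 22.4 TPM. The ligand gene Ltb, chosen after its values were seen, had 3.67, 3.48 and 4.03 TPM in WT and 1.84, 1.25 and 5.72 TPM in R1ko colons, with replicate 3 the highest of all 6 libraries.

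Lymphoid stroma was represented by 11 tested genes, of which 10 had a negative log2 difference and 0 passed, with a median of −0.28. Of all genes tested 44.3% were negative. At an unadjusted p of 0.05 in limma, 3 were lower (Enpp2, Cr2 and Fcer2a) and 1 higher, where 1.97% and 1.72% of all genes were. The list does not stand for stroma alone, since Cr2 is also a gene of B cells. Fcer2a, chosen after its values were seen, had 2.15, 1.91 and 2.82 TPM in WT and 0.975, 0.628 and 2.40 TPM in R1ko colons, with replicate 3 within the wild-type range. Enpp2, the enzyme autotaxin of high endothelial and stromal cells, had 20.3, 14.7 and 20.1 TPM in WT and 10.9, 9.85 and 16.6 TPM in R1ko colons. Mfge8, made by follicular dendritic cells among others, had 68.6 ± 11.3 and 54.0 ± 16.4 TPM, and the B cell survival factor Tnfsf13b 13.5 ± 2.74 and 10.9 ± 1.21 TPM. Chst4, a sulfotransferase, went the other way, at 14.6, 7.92 and 16.1 TPM in WT and 17.9, 17.8 and 18.3 TPM in R1ko colons. Its groups did not overlap, as for 3.17% of the genes tested (higher in knockout). The complement receptor Cr2, chosen after its values were seen, had 2.20, 1.67 and 2.78 TPM in WT, compared with 0.494, 0.342 and 2.22 TPM in R1ko colons, so replicate 3 was again within the wild-type range.

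Other chemokines of the gut overlapped between genotypes, apart from Ccl28. Ccl28, an epithelial chemokine for IgA plasma cells, had 54.4, 46.5 and 63.0 TPM in WT and 77.7, 72.5 and 77.4 TPM in R1ko colons. The knockout libraries were all above wild type, but the gene did not pass in limma (log2 difference 0.48, adjusted p = 1.0). Ccl25, the small intestinal chemokine, had 8.27 ± 2.14 and 7.78 ± 1.91 TPM. Of the atypical receptors, which take up chemokines, Ackr3 (a receptor for CXCL12) had 10.9 ± 3.08 and 10.1 ± 1.71 TPM and Ackr4 (for CCL19 and CCL21) 2.78 ± 0.686 and 3.20 ± 0.593 TPM.

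Other cell types of the wall overlapped between genotypes in their summed levels. Fibroblast and pericyte genes summed to between 407.6 and 551.9 TPM in wild type and between 373.1 and 530.6 TPM in knockout. Endothelial genes ran from 38.3 to 66.0 and from 36.1 to 57.5 TPM, macrophage and dendritic cell genes from 71.4 to 109.2 and from 71.5 to 112.3 TPM, and T cell genes from 7.58 to 10.4 and from 6.87 to 11.8 TPM. Follicle epithelium and M cell genes ran from 80.3 to 123.4 and from 95.8 to 122.3 TPM. Colon epithelium genes ran from 2686 to 3558 and from 3433 to 3656 TPM. Of the 8 colon epithelium genes, 1 had a negative log2 difference, with a median of 0.24 against 0.02 for all genes tested. Groups did not overlap for 2 of the 8, both higher in knockout, as for 3.17% of the genes tested. Of all 13 lists, only that of neighbouring tissue had genes that passed: the hair follicle genes Krt25, Tchh and Krt71 were lower and the fat gene Cfd higher in knockout, and none of these did after median-of-ratios scaling. Their part in the level of Cxcl13 was not tested. Krt25 had 20.9, 2.86 and 12.1 TPM in WT and 2.70, 1.50 and 2.84 TPM in R1ko colons (limma adjusted p = 0.0377). The list of neighbouring tissue also holds skeletal muscle genes. It summed to between 133.4 and 1633.6 TPM in wild type and between 674.5 and 1552.3 TPM in knockout. At an unadjusted p of 0.05 in limma, 7 of its 10 genes were higher and 3 lower, where 1.72% and 1.97% of all genes were.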

How the data were processed

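The authors deposited 1 table of TPM per transcript, with 1 column for each of 6 whole-colon libraries. The submitters' processing notes name kallisto 0.43.1 and sleuth as tools and mm10 as the build. TPM keep no depth, so counting error could not be computed. Lines repeated for a transcript (1433) were taken once, transcripts without a gene symbol (1380) were left out, and TPM were summed per symbol. Genes averaging 1 TPM or more over the 6 libraries were tested as log2(TPM + 0.5) with limma 3.58.1 in R 4.3.3 (lmFit, eBayes with a variance trend), and p-values were adjusted by Benjamini-Hochberg over all 14248 genes. The fit was tested on simulated data. The 9 members, the gene lists and the alternatives were chosen with earlier results of these data known. From each list the text names genes past the threshold and then those with the highest mean, up to 4; others are marked as chosen after their values were seen. Positions come from GENCODE M21. Sequences come from RefSeq (GRCm38.p6) and GENCODE M21, and shared words were counted on both strands. Some genes that the naming rule covers are not reported here.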

Additional observations from a re-analysis of the deposited data

How the results depend on the processing

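Over all genes, 38 passed the threshold (13 higher, 25 lower in knockout). The number was 24 with a pseudocount of 0.1, 2 with no filter on low values, 142 with a filter at 5 TPM (75 higher, 67 lower), 6 after median-of-ratios scaling (5 higher, 1 lower) and 4 after rescaling over transcripts with a gene (3 higher, 1 lower). With each library left out it ran from 19 (without wild-type replicate 2) to 307 (without wild-type replicate 1), with 111 without wild-type replicate 3 and 202, 171 and 209 without knockout replicates 1, 2 and 3. Of the genes in the 13 lists, 4 passed. That number was 1 with a pseudocount of 0.1, 10 with a filter at 5 TPM, and 0 with no filter, after either scaling, or with no variance trend, and from 1 to 17 with a library left out. Outside neighbouring tissues, Cdx2 (higher) and Ighd passed with the filter at 5 TPM, Ccl21c, Cd22, Cd79b, Cdx2, Fcmr and Ighd without wild-type replicate 1, Ighd without knockout replicate 1, and Cdx2 without knockout replicate 2. The cause of these changes was not tested. Rescaling over transcripts with a gene moved the median of all genes from 0.02 to −0.10, and leaving out wild-type replicate 2 moved it to −0.13. With the replicate number as a block, 71 genes passed (13 higher, 58 lower), 4 of them in the lists (Cdx2 and Fcmr among these), and the difference of Cxcl13 was −1.28 as before. Whether the replicate numbers mark a pairing or a shared batch is not known. Same-numbered libraries had deviations correlated at 0.05, 0.13 and 0.18, and 5 of 6 libraries correlated best with their own number. The differences of Cxcl13, Ccl19, Ccl21a, Cxcl12, Cxcr4, Cxcr5 and Ccr6 kept their sign in each alternative run. Ccr7 changed from −0.19 to 0.07 without knockout replicate 2, and Ccl20 from 0.25 to −0.32 without knockout replicate 3. Cxcl13 lay between −1.46 and −1.09 with each library left out, at −1.31 after median-of-ratios scaling, and at −1.02 and −0.97 as ratios to Cxcl12 and Ccl21a, chosen after seeing the data. TPM carry no depth, so genes near 1 TPM, among them Cxcr5, Ccr6, Ccr7 and Ccl19, have an error that is not known.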
